A study of Malus domestica with 12 samples.

Results

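Late Endodormancy was compared with Early Endodormancy in apple buds, using 6 of the 12 small RNA libraries of a dormancy series. Early Endodormancy (Stage 1) was sampled at 665 chilling hours and Late Endodormancy (Stage 2) at 1098 chilling hours, and a chilling hour counts an hour of cold received by the trees. Both groups were untreated apical flower buds of short shoots (spurs) of "Golden Delicious" trees of the same age in 1 orchard. Each stage had 3 biological replicates, each pooled from 9 buds taken from 3 trees. A forcing test in warm conditions placed Stage 1 within endodormancy and Stage 2 around its end. The remaining stages, Early Ecodormancy and Late Ecodormancy, entered the model that estimated the spread. Libraries A, B and C came from Early Endodormancy and libraries D, E and F from Late Endodormancy. Within a stage all libraries had the same sampling date, so chilling and date cannot be told apart.

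The members of the comparison were all distinct mature sequences in the deposited counts, 370 in all, of which 319 had at least 1 read in the 6 libraries and 238 passed the filter on low counts. Of the 370 sequences, 254 carried a miRNA name and 116 did not, and 96 of the unnamed ones were 24 nucleotides long. Mature reads numbered 985517 to 2088298 per library. A level is given below as CPM, the count relative to the mature reads of a library after scaling by TMM, which sets the bulk of the small RNAs equal between libraries. A fold change is given as log2 of Late over Early. In whole buds, fewer cells of a type and less of a small RNA per cell cannot be told apart. The tables hold small RNAs only, so the tissue label was not checked against marker genes.

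Plant miRNAs are cut from hairpin precursors by DICER-LIKE proteins, mostly as 21-nucleotide molecules, and guide an ARGONAUTE (AGO) protein to complementary mRNAs, which are cleaved or translated less. The 24-nucleotide small RNAs of plants mostly load AGO proteins of the AGO4 clade, which prefer an A at the 5′ end, and direct DNA methylation. In endodormancy a bud does not grow even in the warmth until it has received enough cold.

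The abundant sequences that the comparison turns on are printed first, 5′ to 3′ as deposited (T for U), with bases 2 to 8, the seed, in capitals. They are regulators with known targets in other plants and 2 apple miRNAs of high abundance.
mdm-miR166d: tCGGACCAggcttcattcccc
mdm-miR159d: tTTGGATTgaagggagctcta
mdm-miR319a: tTGGACTGaagggagctccct
mdm-miR1511: aCCTAGCTctgataccatgaa
mdm-miR482b: tCTTTCCTatccctcccattcc
mdm-miR482c: tCTTTCCTaaccctcccattcc
mdm-miR396d: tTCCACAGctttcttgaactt
mdm-miR171b: tTGAGCCGcgtcaatatctcc
mdm-miR394a: tTGGCATTctgtccacctcc
mdm-miR5225c: tCTGTCGTgggtgagatggtgc

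The next set had at most 31 reads in any of the 6 libraries, and large fold changes with wide intervals.
mdm-miR7125: cGAACTTAttgcaactagctt
mdm-miR395l: cTGAAGTGtttgggggaaccc
lus-miR167a: tGAAGCTGccagcatgatctc
bdi-miR159a-3p: cTTGGATTgaagggagctct
aly-miR858-5p: tTTCGTTGtctgttcgacctt

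The unnamed 24-nucleotide sequences are shown because most of them had the opposite sign of the named families, and because 2 pairs of them share a seed.
t10212079_x3461: gTTTTTGAatggaagactcatgtg
t01163329_x11463: gTTTTTGAatgaaaggctcatgtg
t10123212_x367: aTCAAATTtcaagggtccggatct
t01047916_x221: aTCAAATTtcaacagtccggatcc
t01903391_x2585: aAAATTTGattcaacggctaaagt
t00205877_x43290: aCGGTGATaaatagggtagtgagc
t03271250_x5800: tTCCTTCGtgactaatccatcttc

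The miR166 family filled most of each library at both stages. Its share of mature reads was 84.3% in A, 83.7% in B and 86.1% in C, and 89.9% in D, 82.0% in E and 86.8% in F. The family targets the class III HD-ZIP transcription factors of the apical meristem and of leaf polarity. The groups overlapped, with 84.7% ± 1.27 (SD, n = 3) at Early and 86.3% ± 3.97 (SD, n = 3) at Late Endodormancy (exact two-sided permutation test, p = 0.6), where 3 against 3 libraries allow no p under 0.1. Reads of 22 nucleotides, the class of most tested miR482 members, took 1.99%, 2.89% and 1.87% at Early and 1.29%, 1.60% and 1.34% at Late Endodormancy. All 3 Late libraries were below all 3 Early ones in this class (exact permutation test, p = 0.1; adjusted over 9 measures, 0.72). Reads of 24 nucleotides took 0.703%, 0.868% and 0.731% at Early and 0.536%, 1.85% and 1.17% at Late Endodormancy, and library D was below every Early library while E and F were above (exact permutation test, p = 0.4).

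**Figure D1:**
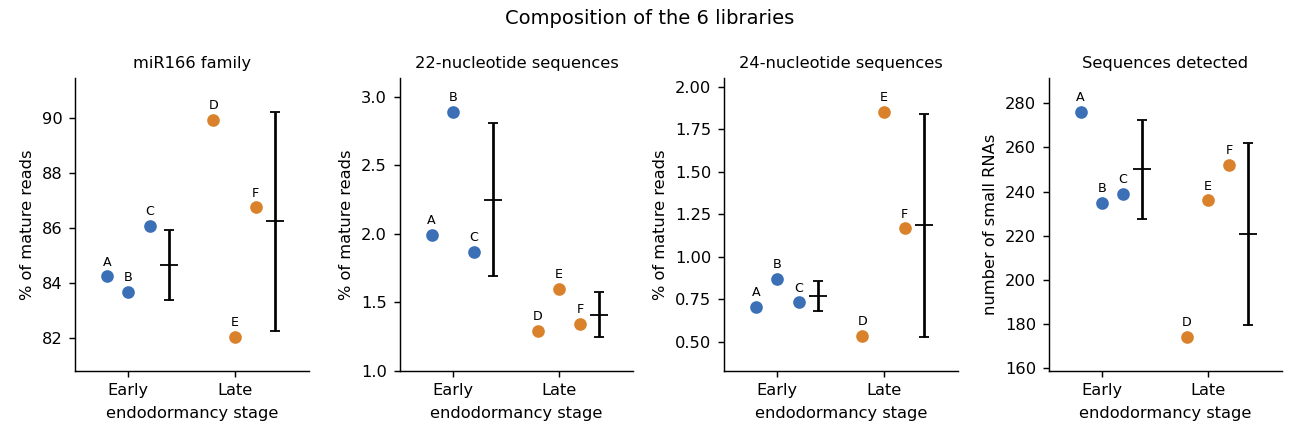
Share of the miR166 family, of 22-nucleotide and of 24-nucleotide sequences in mature reads (%, each axis cut to its values) and the number of small RNAs with a read, for the 6 libraries by stage; points are libraries, marked by letter, and the bar is the mean ± SD. Library D has the highest miR166 share (89.9%) and the fewest sequences (174).

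Library D stood apart from the other 5 libraries. It had 1727740 mature reads, but only 174 sequences were detected in it, against 235 to 276 in the others, and 41 sequences with reads in all 5 other libraries had none in D. The median difference from another library was 1.13 to 1.37 on the log2 scale for D and 0.50 to 0.82 between the rest. Leaving out D moved the median log2 fold change of all tested small RNAs from −0.03 to −0.27. Values without D are given for many of the sequences below, and the part of D in the other results was not tested.

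No small RNA passed an adjusted p under 0.05 between the 2 endodormancy stages (edgeR quasi-likelihood test with Benjamini-Hochberg adjustment, 0% of 238, smallest adjusted p 0.963). With an unadjusted p of at most 0.05, here termed a nominal difference, 12 sequences were found (5.04% of 238), 5 nominally higher (2.1%) and 7 nominally lower (2.94%) at Late Endodormancy. DESeq2 also gave 0 at an adjusted p under 0.05, and 15 nominal differences among 369 sequences tested. The number of nominal differences was 1 without library B, 6 without C, 7 without E, 16 without D and 18 without F, each among 244 to 248 tested. Without D, lus-miR167a, t03271250_x5800 and bdi-miR159a-3p no longer differed nominally (unadjusted p of 0.0514, 0.0555 and 0.0658 by edgeR). Others differed nominally without D but not with all libraries. Among them were mdm-miR482b, mdm-miR171b, mdm-miR5225c and t11329296_x5768 (unadjusted p of 0.0226, 0.0358, 0.0370 and 0.0154 by edgeR). In the same model the other pairs of stages gave 1 to 6 adjusted calls and 7.14% to 11.8% nominal differences; these pairs share libraries, and the difference between pairs was not tested. All values below are descriptions of sequences for which no change was established.

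The precision differed with abundance. The median half-width of the 95% interval of a fold change was 2.00 on the log2 scale, and for 9 sequences (3.78% of 238) the whole interval lay within 1 on either side of 0. They included mdm-miR482d, with −0.24 (interval −0.91 to 0.42; −0.33 to 0.07 over 5 scalings and −0.44 without D), mdm-miR319a, with 0.26 (−0.48 to 1.00; −0.08 without D), and cme-miR319c, with 0.18 (−0.53 to 0.89; 0.15 without D). The miR319 family targets TCP transcription factors, which control cell division in leaves and flowers. For the other sequences the interval reached beyond 1 on the log2 scale in at least 1 direction.

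**Figure D2:**
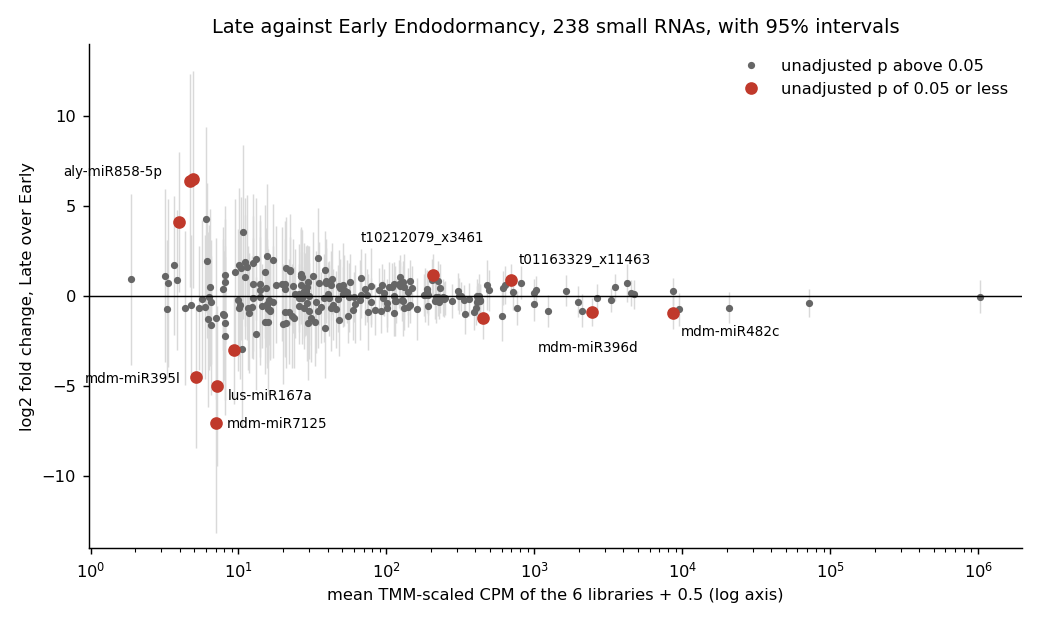
log2 fold change of Late over Early Endodormancy (vertical axis) against the mean CPM of the 6 libraries plus 0.5 (horizontal log axis) for the 238 small RNAs tested; grey lines are 95% intervals and red points differ nominally. The intervals narrow with abundance, and the largest fold changes lie among sequences of about 10 CPM or less.

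The tested sequences listed as regulators of disease resistance genes all belonged to the miR482 family (with miR2118). The 22-nucleotide guide miRNAs of this family target NBS-LRR transcripts and start secondary siRNAs from them. The level of mdm-miR482c was 9757, 15313 and 8923 CPM in A, B and C and 7061, 5296 and 5642 CPM in D, E and F. All Late libraries were below all Early ones, with 11331 ± 3474 against 6000 ± 935 CPM (SD, n = 3). The log2 fold change was −0.92 ± 0.43 (SE; −1.27 without D), with an unadjusted p of 0.0452 by edgeR. The order was the same under each of 5 scalings. mdm-miR482b, which differs from it at 1 base (T10A, from mdm-miR482b to mdm-miR482c, counted from the 5′ end), had 11067, 14823 and 9495 CPM at Early and 9306, 5405 and 6558 CPM at Late Endodormancy. Its log2 fold change was −0.73 ± 0.44 (SE) with all libraries, and −1.20 without D. Both precursors lie on the minus strand of chromosome 13 in GDDH13 v1.1, at chr13:2405030-2405155 for mdm-miR482c and chr13:2393892-2394065 for mdm-miR482b. mdm-miR2118b had 454 ± 150 CPM at Early and 224 ± 40.4 CPM at Late Endodormancy (SD, n = 3), without overlap with TMM. Of the 6 tested members of the family, 1 was nominally lower, 4 had every Late library below every Early one with TMM and the median log2 fold change was −0.60 (−0.66 to −0.29 over 5 scalings and −1.16 without D), beside 7 (2.94%), 30 (12.6%) and −0.03 over all 238 (−0.27 without D). Of these 4, mdm-miR482b kept the order under 3 of 5 scalings and mdm-miR482d under 1. As mdm-miR482b and mdm-miR482c differ at 1 base, they are not independent of each other if reads were shared between them. The exception in sign was mdm-miR482a-5p, with 19.8 ± 12.2 and 42.8 ± 16.0 CPM (SD, n = 3). The 6 also included mdm-miR482d, of 21 nucleotides and with the seed ATGGAAG, where mdm-miR482b and mdm-miR482c have CTTTCCT. Whether mdm-miR482a-5p and mdm-miR482d target NBS-LRR transcripts was not tested.

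Regulators of the meristem and of organ polarity followed. mdm-miR396d, of a family that limits the growth regulators called GRF, had 3145, 3552 and 2884 CPM at Early and 854, 2059 and 2224 CPM at Late Endodormancy. The Late libraries were all lower, also under 4 of 5 scalings, and D was the lowest of them. The means were 3193 ± 337 and 1712 ± 748 CPM (SD, n = 3), the log2 fold change was −0.90 ± 0.37 (SE) with an unadjusted p of 0.0244 by edgeR, and it was −0.81 without D. mdm-miR171b, which targets GRAS-domain genes that maintain the shoot meristem, had 3118, 2532 and 2432 CPM at Early and 1634, 1463 and 1500 CPM at Late Endodormancy. Its Late libraries lay below the Early ones under each of 5 scalings, and close together with TMM. As a share of mature reads the Late libraries had 0.105% in D, 0.173% in E and 0.133% in F. With TMM the means of mdm-miR171b were 2694 ± 371 against 1533 ± 90.0 CPM (SD, n = 3), with a log2 fold change of −0.81 ± 0.44 (SE; −1.11 without D). The level of mdm-miR394a, which acts in Arabidopsis on an F-box gene to keep stem cells competent, was 719, 1071 and 678 CPM at Early and 239, 403 and 512 CPM at Late Endodormancy. Its groups did not overlap under any of the 5 scalings, while its log2 fold change of −1.10 ± 0.68 (SE) had an unadjusted p of 0.119 by edgeR. mdm-miR164c, which restrains the NAC genes of organ boundaries, had 506 ± 134 and 276 ± 126 CPM (SD, n = 3). For mdm-miR166d itself the log2 fold change was −0.03 ± 0.44 (SE), −0.56 without D and −0.10 to 0.27 over 5 scalings. Of the 44 tested members of this list, 1 was nominally lower and 0 nominally higher, and 5 had all Late libraries lower with TMM, beside 2.94%, 2.1% and 12.6% of all 238. Of the 5, mdm-miR164c kept this order under 1 of 5 scalings. Another, ptc-miR396e-3p, is named for the 3p arm of its hairpin, while mdm-miR396d comes from the 5p arm. Whether ptc-miR396e-3p targets GRF genes was not tested. The median log2 fold change of the list was −0.14, with −0.24 to 0.14 over 5 scalings and −0.48 without D.

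The miR159 family, which targets GAMYB-like transcription factors that act in abscisic acid and gibberellin responses, was the most abundant family after miR166. Its main member mdm-miR159d had 91794, 79510 and 74456 CPM at Early and 67512, 63278 and 57295 CPM at Late Endodormancy. The groups did not overlap with TMM, which held under 2 of 5 scalings, and the log2 fold change was −0.39 ± 0.37 (SE), −0.49 to −0.08 over 5 scalings and −0.69 without D. mdm-miR159a, which differs from it by T1C and T20C over 20 bases (mdm-miR159d to mdm-miR159a), had 5350, 2162 and 2044 CPM at Early and 10259, 3316 and 2308 CPM at Late Endodormancy. A stood above B and C, and D above E and F. Its log2 fold change was 0.73 ± 0.51 (SE) with all libraries and −0.45 without D. The variant bdi-miR159a-3p had 11, 19 and 25 reads in A, B and C and 1, 1 and 4 reads in D, E and F (log2 fold change −3.01, unadjusted p of 0.04999 by edgeR). As it differs from mdm-miR159d at 1 of 20 bases (T1C), reads of such near-identical sequences may have been split between names, so its value is uncertain.

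The miR858 family targets R2R3-MYB genes of flavonoid synthesis. ath-miR858b had 1190, 875 and 759 CPM at Early and 663, 616 and 478 CPM at Late Endodormancy. Its groups did not overlap with TMM, which held under 3 of 5 scalings (log2 fold change −0.68 ± 0.45, SE, and −1.03 without D). mdm-miR858, with the seed of ath-miR858b, had 669, 261 and 207 CPM at Early and 1293, 288 and 147 CPM at Late Endodormancy, where D was again the highest and F the lowest (0.60 ± 0.67, SE, and −1.08 without D). aly-miR858-5p matches ath-miR858b over 20 bases at a shift of 1 base. It had 31 reads in library E and 0 in the other 5, so its unadjusted p of 0.036 by edgeR rested on a single library. Over the summed groups its Late level was at least 12.04 times the Early one, taking 3 reads as the limit of a count of 0. This bound covers counting error only, and the fitted log2 fold change was 6.49 (95% interval 0.47 to 12.5).

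Apple sequences outside these roles had mixed signs. On the list of apple and Rosaceae families, 11 of 17 tested had a log2 fold change below 0 and 6 above, beside 122 and 116 of all 238. The median was −0.28 (−0.37 to 0.05 over 5 scalings and −0.53 without D), beside −0.03 over all 238. mdm-miR1511 had 22478, 29325 and 23388 CPM at Early and 7361, 20094 and 20678 CPM at Late Endodormancy, and D lay far below E and F. Its log2 fold change was −0.64 ± 0.42 (SE), and −0.53 without D. mdm-miR5225c had 1952, 1148 and 1623 CPM at Early and 964, 851 and 871 CPM at Late Endodormancy. Its Late libraries were all lower with TMM, which held under 3 of 5 scalings (−0.81 ± 0.43, SE, and −1.13 without D). mdm-miR7120b-5p showed the reverse order, with 12.1 ± 5.44 CPM at Early and 31.5 ± 5.09 CPM at Late Endodormancy (SD, n = 3) and no overlap under any of the 5 scalings, and mdm-miR7120a-3p had 2166 ± 229 and 1749 ± 114 CPM.

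**Figure D3:**
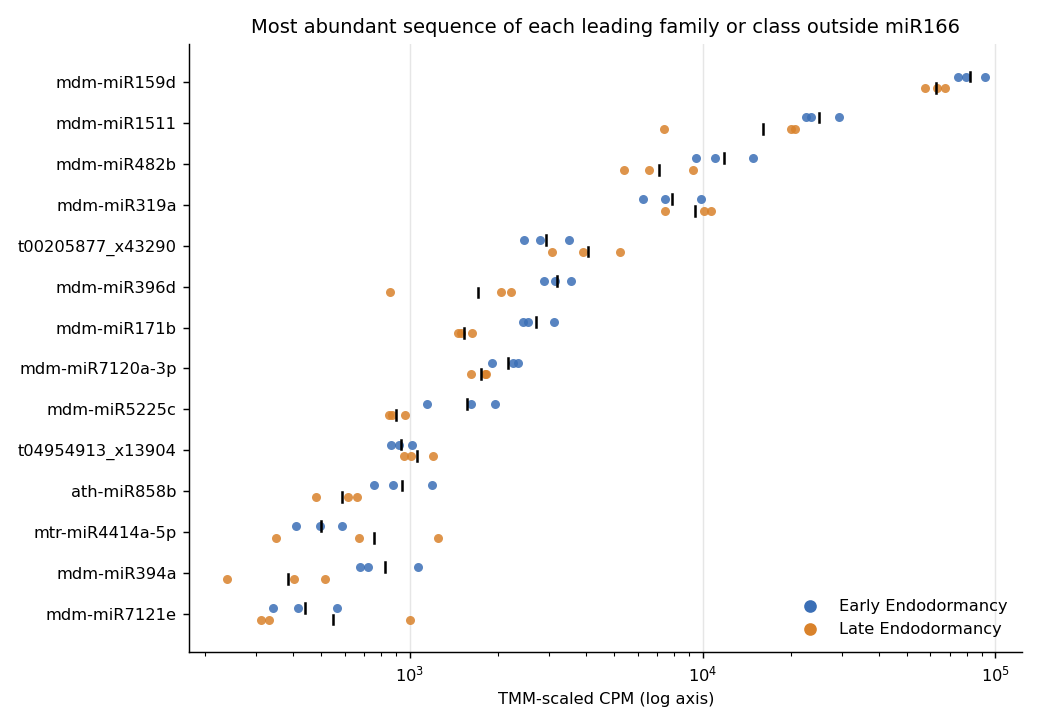
CPM (log axis) of the most abundant sequence of the 14 leading families or classes after miR166; points are libraries, upper row of each Early and lower row Late Endodormancy, and black ticks are means. The Late points of mdm-miR171b lie between 1463 and 1634 CPM and below its Early points, while those of mdm-miR319a overlap its Early points.

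Several sequences of low abundance were found at Early and hardly at Late Endodormancy. mdm-miR7125, which in apple acts on a cinnamoyl-CoA reductase gene of lignin synthesis, had 17, 24 and 9 reads at Early and 0, 0 and 0 reads at Late Endodormancy. Summed over the libraries, its Early level was at least 14.3 times the Late level (limit of 3 reads over the group), which covers counting error only. The fitted log2 fold change was −7.04 (95% interval −13.2 to −0.91), with an unadjusted p of 0.0266 by edgeR. mdm-miR395l, of a family that targets ATP sulfurylase and a sulfate transporter, had 11, 15 and 8 reads at Early and 1, 0 and 0 reads at Late Endodormancy. Summed over the libraries, its Early level was 29.2 times the Late level, with a 95% interval of 4.90 to 1186 that covers counting error only, and the unadjusted p was 0.0263 by edgeR. lus-miR167a had 13, 12 and 21 reads at Early and 0, 0 and 1 reads at Late Endodormancy. It differs from the apple sequence mdm-miR167g at its last base (C21A, lus-miR167a to mdm-miR167g), and mdm-miR167g had 494 ± 97.0 and 306 ± 42.4 CPM (SD, n = 3). Both target auxin response factors. The Late values lay below the limit that a count of 0 allows, 2.71 CPM in D, 2.58 in E and 2.96 in F.

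**Figure D4:**
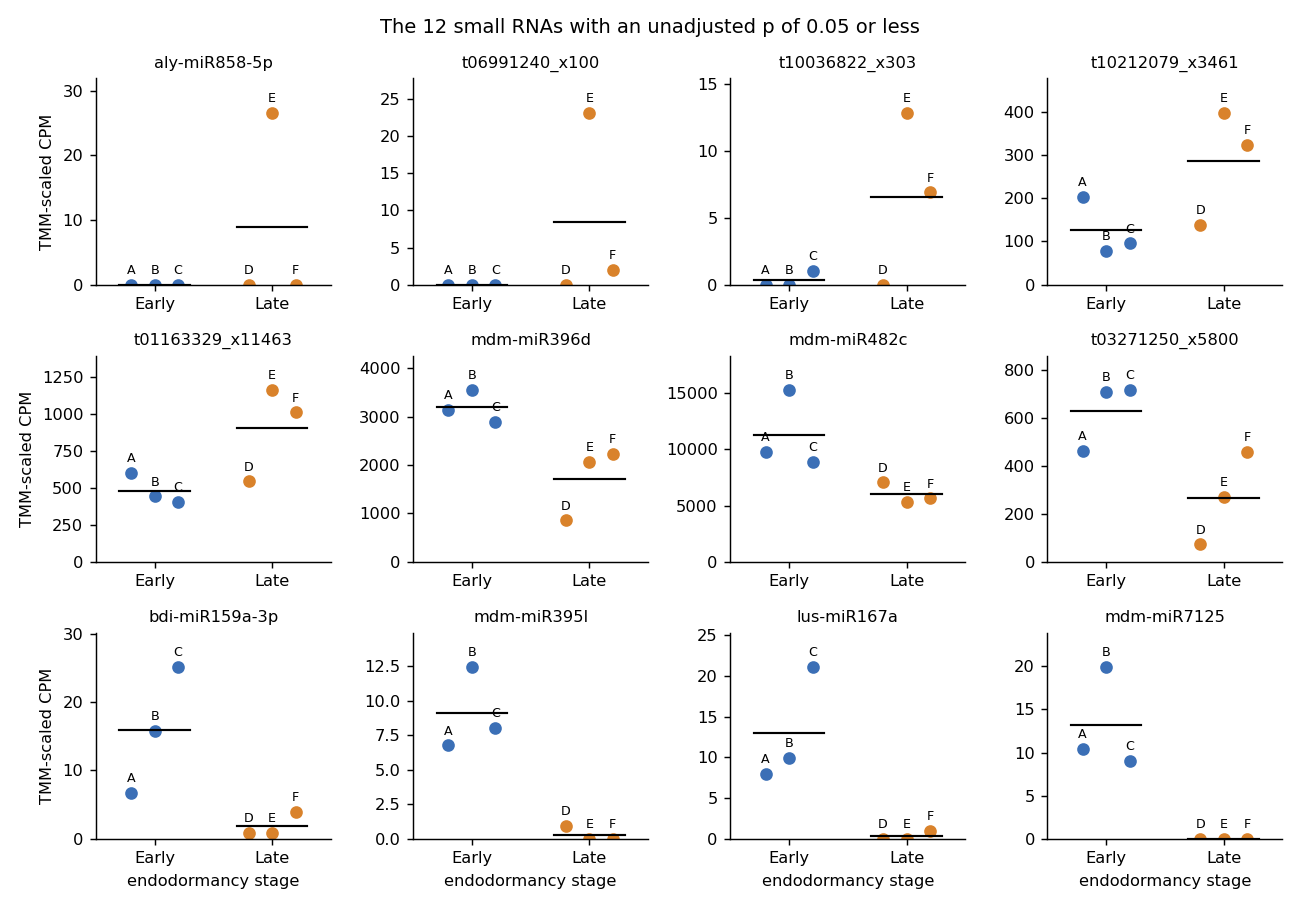
CPM in each of the 6 libraries, by stage and marked by letter, for the 12 small RNAs that differed nominally; black lines are means and each axis starts at 0. In 7 panels all Late points lie below all Early points, and for aly-miR858-5p the Late mean comes from library E alone.

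The unnamed 24-nucleotide sequences had mostly positive signs. Of 93 tested, 68 had a log2 fold change above 0 and 25 below, with a median of 0.48, beside 116 above 0 and a median of −0.03 over all 238. The median was 0.41 to 0.79 over 5 scalings and 0.40 without D. Of these 93, 3 were nominally higher, 1 was nominally lower, 5 had every Late library above every Early one and 2 below, beside 5 (2.1%), 7 (2.94%), 8 (3.36%) and 30 (12.6%) over all. The summed class had 9447 ± 962 CPM at Early and 12388 ± 3698 CPM at Late Endodormancy (SD, n = 3), a log2 fold change of 0.39 ± 0.36 (SE). Library D, with 8378 CPM, lay below every Early library, while E and F lay above them. Their 5′ base was A in 86 of the 96 sequences, and these took 75.5% to 80.4% of the class's reads in every one of the 6 libraries, while none began with C.

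A pair with the seed TTTTTGA had higher levels in 2 of the 3 Late libraries. t01163329_x11463, from a hairpin at chr3:16706357-16706454 on the plus strand, had 600, 443 and 404 CPM at Early and 545, 1165 and 1012 CPM at Late Endodormancy (log2 fold change 0.91 ± 0.43, SE, unadjusted p of 0.0453 by edgeR). t10212079_x3461, from chr11:18121043-18121168 on the plus strand, had 204, 77.2 and 95.5 CPM at Early and 138, 398 and 323 CPM at Late Endodormancy (1.19 ± 0.55, SE, unadjusted p of 0.0434). Library D lay within the Early range for both, and E and F above it. The sequences differ at 2 bases (G12A and A16G, from t10212079_x3461, counted from the 5′ end) and were the only ones of the 370 with this seed, so they are not independent of each other if reads were shared between them.

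The pair with the seed TCAAATT differed between the groups without overlap under each of 5 scalings. t10123212_x367 had 12.3, 20.7 and 13.1 CPM at Early and 28.9, 46.3 and 34.6 CPM at Late Endodormancy. t01047916_x221 had 6.76, 9.96 and 3.01 CPM at Early and 28.0, 39.5 and 11.8 CPM at Late Endodormancy. Their reads numbered 3 to 54 per library, and their unadjusted p values by edgeR were 0.325 and 0.197. They differ by G13C, G14A and T24C (t10123212_x367 to t01047916_x221) and lie on chromosomes 3 and 16. t01903391_x2585 had 135, 128 and 160 CPM at Early and 228, 265 and 302 CPM at Late Endodormancy, with every Late library above the Early ones under each scaling (0.91 ± 0.56, SE). The most abundant sequence of the class, t00205877_x43290, had 2922 ± 534 and 4067 ± 1082 CPM (SD, n = 3) with overlap. The reverse was seen for t03271250_x5800, with 461, 707 and 716 CPM at Early and 72.3, 269 and 458 CPM at Late Endodormancy (−1.24 ± 0.54, SE, unadjusted p of 0.0332 by edgeR), where A and F nearly met. Of the nominally higher sequences with few reads, t06991240_x100 (24 nucleotides) had 27 reads in E, 2 in F and 0 in the other 4 libraries, and t10036822_x303 (21 nucleotides) had 15 reads in E, 7 in F, 1 in C and 0 in the other 3.

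Over all tested small RNAs, the scaling moved the balance of signs. Every Late library was below every Early one for 30 sequences (12.6%) and above for 8 (3.36%) with TMM, for 14 (5.88%) and 10 (4.2%) with the total of mature reads, and for 14 (5.88%) and 28 (11.8%) with the total without miR166. The median log2 fold change moved from −0.11 to 0.27 over the scalings. Under all 5 scalings, 8 sequences kept the lower and 4 the higher order. The 8 were mdm-miR482c, mdm-miR171b, mdm-miR394a, mdm-miR11011b, bdi-miR159a-3p, lus-miR167a, mdm-miR7125 and mdm-miR395l, and the 4 were t01903391_x2585, t10123212_x367, mdm-miR7120b-5p and t01047916_x221.

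**Figure D5:**
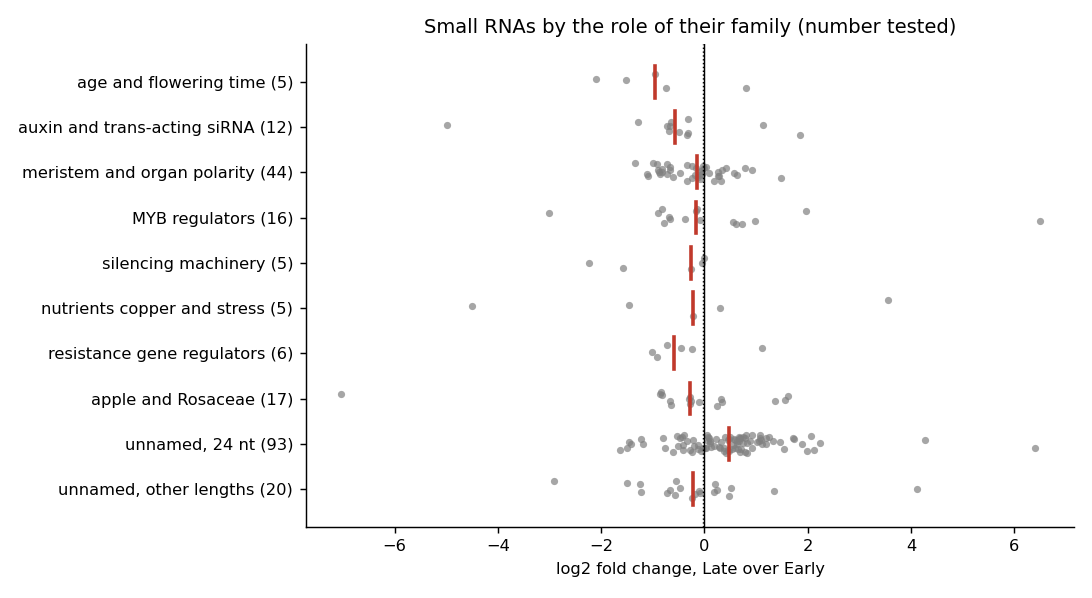
log2 fold change of Late over Early Endodormancy for each tested small RNA, by the role of its family (number tested in parentheses); grey points are small RNAs, spread at random in height, red lines are medians and the dotted line is the median of all 238. The median of the unnamed 24-nucleotide sequences is 0.48, and that of the resistance gene regulators −0.60.

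Lists of other roles held few tested members. For age and flowering time (miR156, which represses SPL genes, and miR172, which represses AP2-like genes), 14 were measured and 5 tested. Of these, 0 differed nominally, beside 5.04% of all 238, and the median log2 fold change was −0.96 (−0.96 to −0.64 over 5 scalings). Among them, gma-miR156k had 104 ± 35.8 and 61.9 ± 18.7 CPM (SD, n = 3) and mdm-miR172m 15.04 ± 5.63 and 7.67 ± 6.65 CPM. For auxin and trans-acting siRNA, 1 of 12 was nominally lower and 4 had all Late libraries lower, beside 2.94% and 12.6% of all 238, with a median of −0.57 (−0.65 to −0.26 over 5 scalings). For regulators of the silencing machinery (miR162 on DCL1, miR168 on AGO1, miR403 on AGO2), 0 of 5 differed nominally, beside 5.04% of all 238. All 5 had a log2 fold change below 0, beside 122 of all 238. Their median was −0.26 (−0.36 to 0.06 over 5 scalings and −0.57 without D). mdm-miR403a had 307 ± 41.4 and 307 ± 167 CPM, and mdm-miR162a 303 ± 35.3 and 253 ± 73.9 CPM (SD, n = 3). For nutrients, copper and stress, 1 of 5 was nominally lower (mdm-miR395l), beside 2.94% of all 238. The median of this list was −0.22 (−0.49 to 0.02 over 5 scalings and −1.11 without D), with 3 below 0 and 2 above. Of the 20 small RNAs that the study selected on these libraries, 1 was nominally lower (mdm-miR482c) and 6 had all Late libraries lower, beside 2.94% and 12.6% of all 238, with a median of −0.19, −0.32 to 0.13 over 5 scalings and −0.68 without D; as they were selected on the same samples, this count is no independent evidence.

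Summed by family, 51 families or classes were tested and 0 passed an adjusted p under 0.05 (0%, edgeR quasi-likelihood test). miR395 and miR7125, each with 1 sequence, were nominally lower (3.92% of 51), and for 4 families (7.84%) the 95% interval lay within 1 on the log2 scale. With edgeR's likelihood ratio test these 2 passed the adjusted threshold, and DESeq2 gave 0 adjusted calls and 3 nominal differences among 85 families tested. Every Late library was below every Early one for 14 families (27.5%) and above for 2 (3.92%) with TMM. Under all 5 scalings, miR11011, miR171, miR395 and miR7125 kept the lower order, while miR482 kept it under 3 and miR396 under 2. Among the 14, miR482 had 28314 ± 6939 and 17202 ± 3208 CPM, miR396 had 4388 ± 438 and 2922 ± 383 CPM and miR171 had 2870 ± 414 and 1629 ± 58.0 CPM (SD, n = 3), with unadjusted p values of 0.077, 0.072 and 0.077. The number of families that differed nominally, among 52 or 53 tested, was 4 without library A, 1 without B, 1 without E and 6 without D, all 6 lower at Late Endodormancy.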

How the data were processed

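Small RNAs bound to AGO proteins were purified with a kit and sequenced on an Illumina HiSeq3000. The authors used Mir-Island with the apple genome GDDH13 v1.1 and deposited its raw read counts, in a table of known miRNAs (miRBase and PNRD) and a table of hairpin loci found de novo; the submitters' processing notes also name CASAVA and Bowtie 0.12.9. Trimming and the treatment of reads with several loci are not given in the sources used here. The 254 known rows and 199 loci were joined to 370 distinct sequences. Columns carry library numbers, which the study's supplementary table pairs with letters and its table of samples with stages. The tables hold 48 further columns of per-library values, among them star reads and depth-scaled reads, which were not used.

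Depth was the sum of mature reads, 985517 to 2088298 in the 6 libraries. A count of 0 allowed up to 3 counts, for 95% confidence, and covers counting error only. Sequences were kept by filterByExpr (minimum count 10, minimum total 15) and tested with the quasi-likelihood F test of edgeR 4.0.16 in R 4.3.3, in 1 model of the 12 libraries with a mean for each stage, TMM scaling and Benjamini-Hochberg adjustment. The standard error was the log2 fold change divided by the square root of F. Means are given with the SD. Families were summed by name (miR2118 with miR482) and tested likewise with the same scaling. Shares of reads were compared by exact two-sided permutation of all 20 splits. Alternatives were other scalings, filters, fits of the 6 libraries alone, the likelihood ratio test, DESeq2 1.42.0, and each library left out. Those without libraries D and L together and with the reads of the study's table of samples were chosen after seeing the data. So were, for families, separate factors and the total without miR166. Hairpins were folded with RNAfold 2.7.2. The fits were tested on simulated data. Python 3.11.15, pandas 2.3.3, NumPy 2.4.6, SciPy 1.17.1 and Matplotlib were used.

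The members and lists were chosen with earlier results of these data known. Named small RNAs are those with an adjusted p under 0.05 (none), those with a nominal difference, the most abundant sequence of each of the 15 most abundant families or classes, the 3 with the narrowest intervals above 100 CPM, and the 20 the study selected. Others named were chosen after their values were seen.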

Additional observations from a re-analysis of the deposited data

How the results depend on the processing

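No small RNA passed an adjusted p under 0.05 in any of the 18 alternatives. The 12 nominal differences (unadjusted p of at most 0.05) were 6 with the total of mature reads, 7 with the reads of the study's table of samples, 4 among sequences with at least 10 reads in each of the 6 libraries, 6 among known sequences alone and 30 without libraries D and L together, of which 25 were lower; leaving out 1 library gave 1 to 18. The cause was not tested, and the number tested also differed. It was 131 with the stricter filter, 125 for the known sequences, 242 without D and L and 244 to 248 with 1 library left out. For families, edgeR's likelihood ratio test gave 2 adjusted calls. The 2 unadjusted family calls became 4 of 51 with the total without miR166, 8 of 48 in the 6 libraries alone and 9 of 53 without D and L. Leaving out 1 library gave 1 to 6, among 52 to 54 families tested. Of mature reads without miR166, the Late minus Early difference in percentage points was 3.36 for 20, −2.56 for 21, −3.99 for 22, −0.00307 for 23 and 3.14 for 24 nucleotides (3.14 for the unnamed ones) and 3.499 for unnamed sequences, with exact permutation p values of 0.1 to 0.5. None of the 12 sequences reversed its sign in them, and aly-miR858-5p had 0 without library E. Of 695 values of named small RNAs, 672 stayed within 1 SE of the main value or kept the sign of an unadjusted call, and 23 moved further.

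No paired analysis was possible because the columns carry library numbers and no replicate numbers. The following planned steps were not run, the share of opposite-arm reads and the scaling by the denominators of the depth-scaled columns, as these columns were not used.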

Other observations

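Outside the comparisons above was ghr-miR2911, whose sequence is known from plant ribosomal RNA. It had 14, 8 and 10 reads at Early and 0, 0 and 0 reads at Late Endodormancy. It was under the filter of the test and was chosen after its values were seen. With mdm-miR7125 it was 1 of 2 sequences, among 319 detected, with reads in every Early and no Late library. The reverse was found for 0 sequences. Reads only at Early were found for 45 sequences and only at Late Endodormancy for 19. Library D alone lacked 41 sequences, against 1 to 3 for each other library compared. Mature reads were 2088298, 1464830 and 1193922 at Early and 1727740, 985517 and 1138414 at Late Endodormancy. The part of depth and of D in these counts was not tested. peu-miR2910, likewise known from ribosomal RNA, had 407 ± 139 and 408 ± 84.4 CPM (SD, n = 3). sit-miR05-npr, which matches mdm-miR166d over 19 bases at a shift of 2 bases, had 563, 514 and 468 CPM at Early and 1184, 412 and 519 CPM at Late Endodormancy, and D was the highest. Its log2 fold change was 0.45 with all libraries and −0.38 without D. In mtr-miR4414a-5p and mdm-miR7121e, D was the highest library too, with 1254 and 1001 CPM. Their log2 fold changes were 0.61 and 0.31 with all libraries, and −0.22 and −0.70 without D.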
